A study of Cyanidioschyzon merolae strain 10D with 3 samples.

Results

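The genes described here were CME019C and CMN262C, the dynamin-related genes of organelle division in *C. merolae*, and CMS004C, a gene of the plastid-division protein FtsZ. They were chosen by identifier and are 3 of the 6823 annotated loci in each library, and 3 of the 4803 loci ending in C on the nuclear chromosomes, all of which the RefSeq table of assembly ASM9120v1 lists as protein-coding. The files and that table carry no product names, so the roles of the genes are given as background knowledge of their identifiers. The data were 3 RNA-seq libraries of polyadenylated RNA, labelled biological replicates 1, 2 and 3, from strain 10D in liquid medium. The cultures were kept at 42°C under constant light (70 μmol), shaken at 150 rpm, and collected in late log-phase. The cultures were of a single condition, so genes were compared with each other, with other loci and between libraries.

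Cells of *C. merolae*, a unicellular red alga, hold a single plastid and a single mitochondrion, and each must divide before the cell does. Plastid-division FtsZ, a relative of tubulin inherited from bacteria, forms a ring on the inner side of the plastid envelope. Dynamin-related proteins are GTPases that assemble on the cytosolic side of a dividing organelle and pinch it apart. The labels give no cell-cycle stage. In RNA from whole cultures, a smaller share of dividing cells and less RNA per dividing cell cannot be told apart.

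The authors deposited FPKM values from Cufflinks, which are fragment numbers scaled to the length of the locus and to the mapped fragments, with a lower and an upper confidence limit. These limits lie 2 SD from the value and hold no spread between cultures. By them, the 4955 loci that overlap no other locus held 1.30e+07 fragments in the first library, 2.88e+06 in the second and 2.98e+06 in the third, under the assumption of Poisson counting. Libraries 2 and 3 differed by less than this sampling noise (mean chi-square per locus 0.272 over 4381 loci, where independent sequencing of one RNA gives 1), against 21.7 between libraries 1 and 2 and 20.7 between libraries 1 and 3. Libraries 2 and 3 were therefore averaged first and counted as 1 sample, which gives n = 2 in each mean with an SD.

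By the deposited FPKM, all 3 genes were above the median nuclear locus ending in C in every library. For CMN262C this place depends on how reads were divided with a locus that overlaps most of it. CMS004C was at 3.21, 3.58 and 3.54 times the median of libraries 1, 2 and 3, and CME019C at 3.33, 2.58 and 2.56 times. These 2 genes were thus at similar levels in library 1 only. CMN262C was close to the median, at 1.33, 1.14 and 1.13 times. The mean FPKM was 200.2 ± 20.96 (SD, n = 2) for CMS004C, 174 ± 26.1 (SD, n = 2) for CME019C and 72.7 ± 5.95 (SD, n = 2) for CMN262C. Library 1 placed the median locus at 57.7 FPKM, library 2 at 60.5 and library 3 at 60.4.

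CMS004C, the FtsZ gene of this set, spans 8580 to 10088 on chromosome 19, in deposited coordinates with starts rewritten to count from 1 (*C. merolae* Genome Project v3). Its 1509 bp are a coding length, since 99.6% of the nuclear loci ending in C have a length that is a multiple of 3. The RefSeq table lists it at 1512 bp. Library 1 gave 185 FPKM (limits 181 to 190.1), library 2 gave 216 (205 to 227) and library 3 gave 214 (203 to 224). Library 1 was thus lower in FPKM as deposited, with limits apart from the others, but higher by 0.12 on the log2 scale as a share of the summed FPKM of nuclear loci ending in C, which moves the median locus by 0.25. The rank from the top barely differed between libraries, at 574, 576 and 585 of 4803, which is percentile 88.0, 88.0 and 87.8.

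CME019C, a dynamin-related gene, spans 51181 to 53484 on chromosome 5, with a coding length of 2304 bp (2307 bp in the RefSeq table). The level was 192 FPKM (limits 189 to 196) for library 1, 156 (149 to 163) for library 2 and 154 (148 to 161) for library 3. Here library 1 was the higher, again without overlap of the limits. Its rank was 551 for library 1 but 847 and 852 for libraries 2 and 3, or percentile 88.5, 82.4 and 82.3.

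CMN262C, the other dynamin-related gene, spans 644740 to 647625 on chromosome 14, with a coding length of 2886 bp (2889 bp in the RefSeq table). Library 1 was at 76.9 FPKM (limits 72.9 to 80.9), library 2 at 68.9 (63.3 to 74.6) and library 3 at 68.0 (62.5 to 73.6). The deposited limits of the 3 libraries overlapped each other, but those of CMN262C, which overlaps another locus, were wider than counting gives. They correspond to 1500, 592 and 599 fragments, while its FPKM and length imply 5074, 971 and 992. With these larger numbers and counting error alone the limits would be 74.7 to 79.1, 64.5 to 73.4 and 63.7 to 72.3, with library 1 apart from the others, so the overlap rests on the wider limits. Its rank was 1729, 2102 and 2135 of 4803, or percentile 64.0, 56.2 and 55.5. It was at 1.33, 1.14 and 1.13 times the median nuclear locus.

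**Figure D1:**
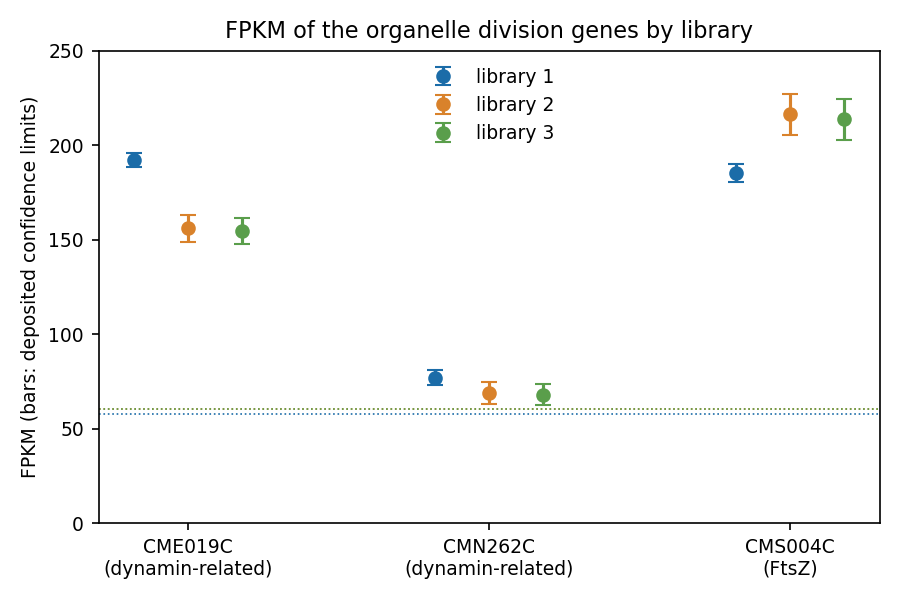
FPKM of CME019C, CMN262C and CMS004C (y axis) in libraries 1, 2 and 3 (colours), with bars from the lower to the upper deposited confidence limit and dotted lines at the median nuclear locus ending in C of each library. CME019C is highest in library 1 at 192, CMS004C is lowest there at 185, and all points of CMN262C lie between 68.0 and 76.9.

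The place of the genes was higher among loci of like length, taken as 0.67 to 1.5 times their own. By mean FPKM, CMS004C stood at percentile 87.9 of all nuclear loci ending in C and at 91.4 of those of its length. CME019C stood at 85.9 and 93.1 in the same sets, and CMN262C at 59.8 and 74.8. Each of the 3 genes thus ranked higher against loci of its own length than against the whole set. By mean FPKM, CME019C stood higher than CMS004C against loci of its own length, the reverse of their order in the whole set. No library by itself showed this reversal. Among loci of like length CME019C stood higher in library 1 (94.3 against 90.6), as in the whole set. CMS004C stood higher in library 2 (92.2 against 91.4) and library 3 (92.0 against 91.3), again as in the whole set.

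**Figure D2:**
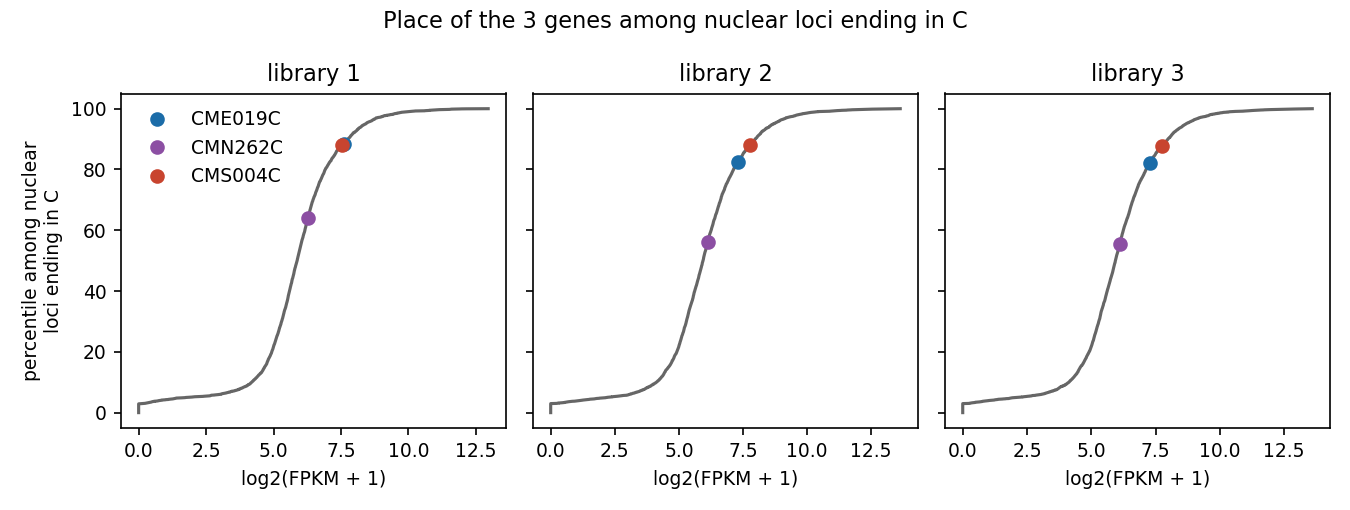
Cumulative distribution of log2(FPKM + 1) (x axis) over the 4803 nuclear loci ending in C as a percentile (y axis), with 1 panel for each library and the 3 genes as points. CMS004C stays at percentile 87.8 to 88.0, while CME019C moves from 88.5 in library 1 to 82.3 in library 3.

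The levels of the genes were then compared pair by pair. FPKM is scaled to length, so levels of different genes were set side by side. The place among nuclear loci still depended on length, as given above, so the ratios carry that limit. CME019C was higher than CMN262C in 3 of 3 libraries, by 2.50 times in library 1 (2.37 to 2.64 from the 2 SD limits), 2.26 times in library 2 (2.06 to 2.49) and 2.27 times in library 3 (2.07 to 2.49). The mean difference was 1.24 ± 0.10 (SD, n = 2) on the scale of log2(FPKM + 1), and 0.54 with the FPKM of CMN261Z, the locus that overlaps CMN262C, added to it. CMN262C was lower than CMS004C in 3 of 3 libraries, with a ratio of 0.415, 0.319 and 0.318 and a mean log2 difference of -1.45 ± 0.27 (SD, n = 2), or -0.74 with CMN261Z added. The limits of CMN262C did not overlap those of either other gene in any library.

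The order of CME019C and CMS004C depended on the library. In library 1 CME019C was at 1.04 times CMS004C (1.00 to 1.07) and the limits of the genes overlapped. In libraries 2 and 3 it was at 0.722 (0.674 to 0.772) and 0.723 (0.676 to 0.773), and the limits did not overlap. The mean log2 difference of -0.21 was smaller than its spread (SD 0.37, n = 2), and was -0.47 without library 1. The exact two-sided permutation test over libraries gave p = 0.1 for each pair with CMN262C and p = 0.2 for CME019C against CMS004C (0.15, 0.15 and 0.2 after Benjamini-Hochberg adjustment over the 3 pairs). With 3 libraries against 3 this exact test cannot give a p below 0.1, and it ignores that the genes were measured in the same libraries. Exact two-sided sign flips within libraries, chosen after seeing the data, gave p = 0.25 for each pair with CMN262C and p = 0.5 for CME019C against CMS004C. The smallest p they allow is 0.25. Both tests treat libraries 2 and 3 as separate samples.

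The change of order between CME019C and CMS004C went together with a difference between libraries that extended over whole chromosomes. Relative to the mean of libraries 2 and 3, library 1 was higher by 0.31 at CME019C (counting SD 0.027) and lower at CMS004C, where the difference was -0.21 (counting SD 0.032), in log2(FPKM + 1). These SDs take libraries 2 and 3 as independent, although they differed by less than sampling noise, so the SDs may be too small. Limits that do not overlap were common between library 1 and the others. They occurred, in either direction, at 48.3% of 4638 nuclear loci ending in C against library 2 and at 47.3% of 4640 against library 3, with 29.7% lower in library 1 in each case, but at 0.043% of 4650 between libraries 2 and 3, where none of the 3 genes differed. Against both other libraries at once they occurred in the direction of CME019C at 16.7% of 4633 nuclear loci ending in C, and in the direction of CMS004C at 27.4% of them. Among loci of like length the shares were 26.5% of 1516 in the direction of CME019C and 20.9% of 2187 in that of CMS004C. On chromosome 5, which carries CME019C, 52.9% of 157 loci were higher in library 1 by this rule and 2.55% were lower. On chromosome 19, which carries CMS004C, 45.8% of 373 loci were lower and 0 were higher, and by the FPKM alone 10 of 313 were higher. The 313 are loci that overlap no other and exceed 20 implied fragments in every library.

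Over these loci, the median log2 difference was 0.27 on chromosome 5 (125 loci other than CME019C) and -0.22 on chromosome 19 (312 loci other than CMS004C). CME019C was 0.040 above the median of its chromosome, and CMS004C was 0.0040 above that of its own. Of the 125 loci on chromosome 5, 43 had a larger difference than CME019C and 82 a smaller one. Of the 312 loci on chromosome 19, 153 lay above CMS004C and 159 below. Both genes therefore followed the middle of their chromosome. The log2 difference between CME019C and CMS004C changed by 0.52 from libraries 2 and 3 to library 1, and the medians of their chromosomes moved apart by 0.48, which leaves 0.036.

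CMN262C lies on chromosome 14, whose median difference was 0.0010 (187 loci). Its own log2 difference of 0.17 exceeded that of 164 of these loci and was below that of 23. Its deposited limits in library 1 overlapped those in the others, while limits apart from both were found, higher in library 1, at 31.4% of 1042 loci of like length. They were found at 9.40% of 234 loci on chromosome 14 with library 1 higher and at 12.4% with library 1 lower.

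**Figure D3:**
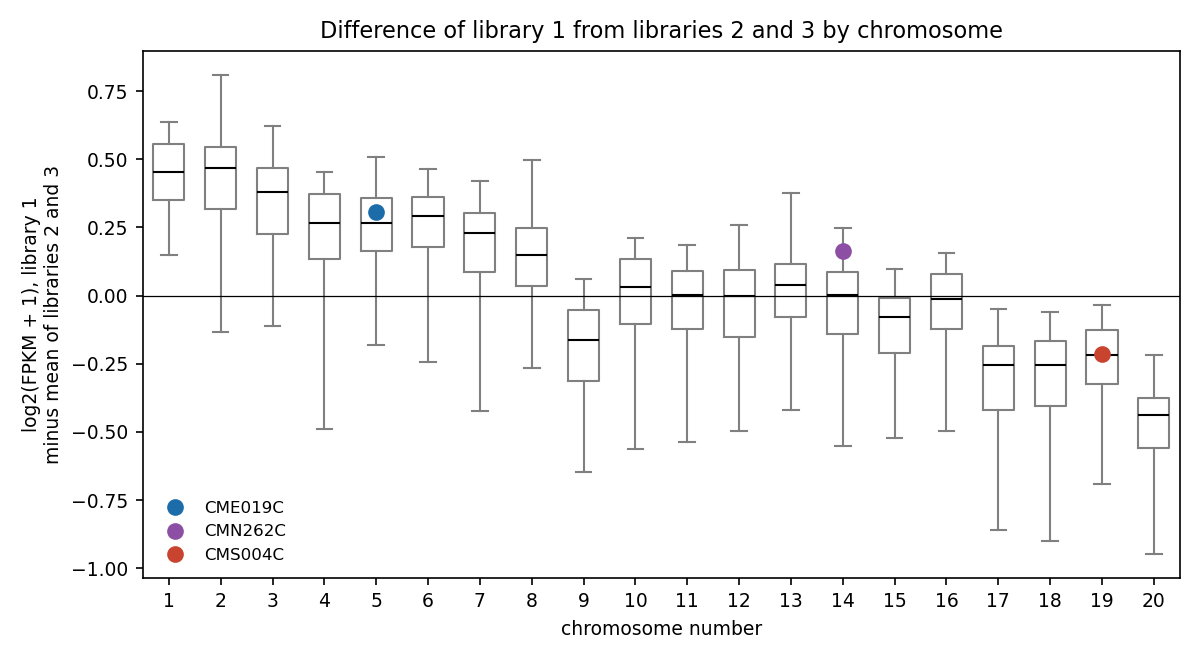
Difference of log2(FPKM + 1) between library 1 and the mean of libraries 2 and 3 (y axis) for nuclear loci ending in C on chromosomes 1 to 20 (x axis), without loci that overlap another or have 20 or fewer implied fragments in a library. Boxes span the quartiles with the median as a line, whiskers reach the 5th and 95th percentiles, and coloured points are the 3 genes, of which CME019C and CMS004C sit near the median of their chromosome.

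Over the 20 nuclear chromosomes the median difference ranged from -0.44 on chromosome 20 to 0.47 on chromosome 2. The chromosome accounted for 40.6% of the variance of the difference over 3830 loci. It followed the length of the chromosome, taken as the end of its last annotated locus, with a Spearman's rho of -0.929 over 20 chromosomes, which share the same libraries. Between libraries 2 and 3 the chromosome medians ranged from -0.029 to 0.013. The cause of the difference between chromosomes was not tested.

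Within their own chromosomes CME019C and CMS004C kept a similar place in the 3 libraries. CME019C ranked 18, 19 and 19 of 161 loci ending in C on chromosome 5, at 3.61, 3.43 and 3.33 times their median FPKM. CMS004C ranked 37, 42 and 43 of 388 on chromosome 19, at 3.11, 3.12 and 3.06 times the median there. CMN262C ranked higher in library 1 than in the others, at 87, 101 and 103 of 253 on chromosome 14 and 1.42, 1.27 and 1.27 times the median, and its log2 difference relative to the chromosome was still 0.16. Each gene was also taken relative to the median level of the other loci ending in C on its chromosome. CME019C was then above CMS004C by 0.18 in library 1 and by 0.11 in the mean of libraries 2 and 3 on the log2 scale. Their order thus no longer changed. The 0.036 given above came from medians of differences between libraries, so it need not match these medians of levels. This comparison was chosen after the data were seen.

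CMS004C lies beside loci with almost no expression. It is the fourth annotated locus from the start of chromosome 19, with 8579 bp before it, and the 3 loci between it and the end were near 0. CMS003X, a locus of the class ending in X that was taken as repetitive elements, ends 100 bp before it. For libraries 1, 2 and 3 in turn, CMS003X was at 0.445, 0.630 and 0.486 FPKM, from 29, 9 and 7 implied fragments. CMS004C was therefore 416, 344 and 440 times as high as the locus beside it. CMS002C was at 0.420 and 0.242 in libraries 1 and 2 and was listed at 0 in library 3, and CMS001X lay between 0.144 and 0.359. Reads of such elements could have been divided between copies by the authors' counting, which makes their values uncertain.

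On its other side CMS004C was followed by expressed loci. CMS005C, which begins 1249 bp after it, was at 51.2, 59.1 and 62.5 FPKM in the same order of libraries, and CMS007C at 155, 184 and 182. All 5 loci within 10 kb on this side, of any class, had a lower FPKM in library 1 than in libraries 2 and 3. On the chromosome, 3.19% of 313 loci ending in C without overlap were higher than in the mean of those libraries. The locus had the highest mean FPKM of the 12 loci ending in C formed by itself, the 10 that follow and the 1 before it. Of the 183 nuclear loci ending in C within 20 kb of a chromosome end, whose median FPKM was 53.3, 46.0 and 46.3, CMS004C ranked 18, 14 and 14. Among the 65 of them that adjoin a locus ending in X it ranked 10, 8 and 8.

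CME019C was higher than every locus within 10 kb. The nearest loci, CME018C and CME020C, lie 4143 bp before and 2604 bp after it. CME018C reached 40.3, 34.3 and 34.9 FPKM across the 3 libraries, and CME020C reached 44.5, 36.7 and 37.7. By mean FPKM, CME019C was 4.64 and 4.25 times as high as these neighbours. All 6 loci within 10 kb, of any class, were higher in library 1 than in libraries 2 and 3. On chromosome 5, 88.1% of 126 loci ending in C without overlap were higher than in the mean of those libraries. Of 21 loci ending in C, itself and the 10 on either side, it ranked 3, with a median of 73.5 over the others.

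CMN262C shares most of its length with another annotated locus. CMN261Z, from 644396 to 647350, covers 90.5% of it (2611 bp), with 47.4, 43.9 and 46.0 FPKM across the 3 libraries. Of the 4803 nuclear loci ending in C, 814 overlap another locus to some extent. The division of reads between the overlapping loci was made by the authors' counting, and the strand setting is not given in the sources used here, so the level of CMN262C is uncertain. Its confidence limits reach 5.16%, 8.22% and 8.17% of the FPKM on either side, against 1.93%, 4.54% and 4.48% for CME019C and 2.57%, 5.07% and 5.01% for CMS004C.

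A higher value for CMN262C was obtained by adding the FPKM of CMN261Z, as if all reads in the shared stretch belonged to the dynamin-related gene. The sums were 124, 113 and 114 for the 3 libraries, at percentile 80.7, 74.8 and 75.1. CME019C was still 1.55, 1.38 and 1.36 times as high as this sum, and CMS004C 1.49, 1.92 and 1.88 times. CMN262C was thus the lowest of the 3 genes in each library with this sum too. The opposite division, with more of the shared reads given to CMN261Z, was not computed. The place of CMN262C above the median nuclear locus is therefore uncertain.

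**Figure D4:**
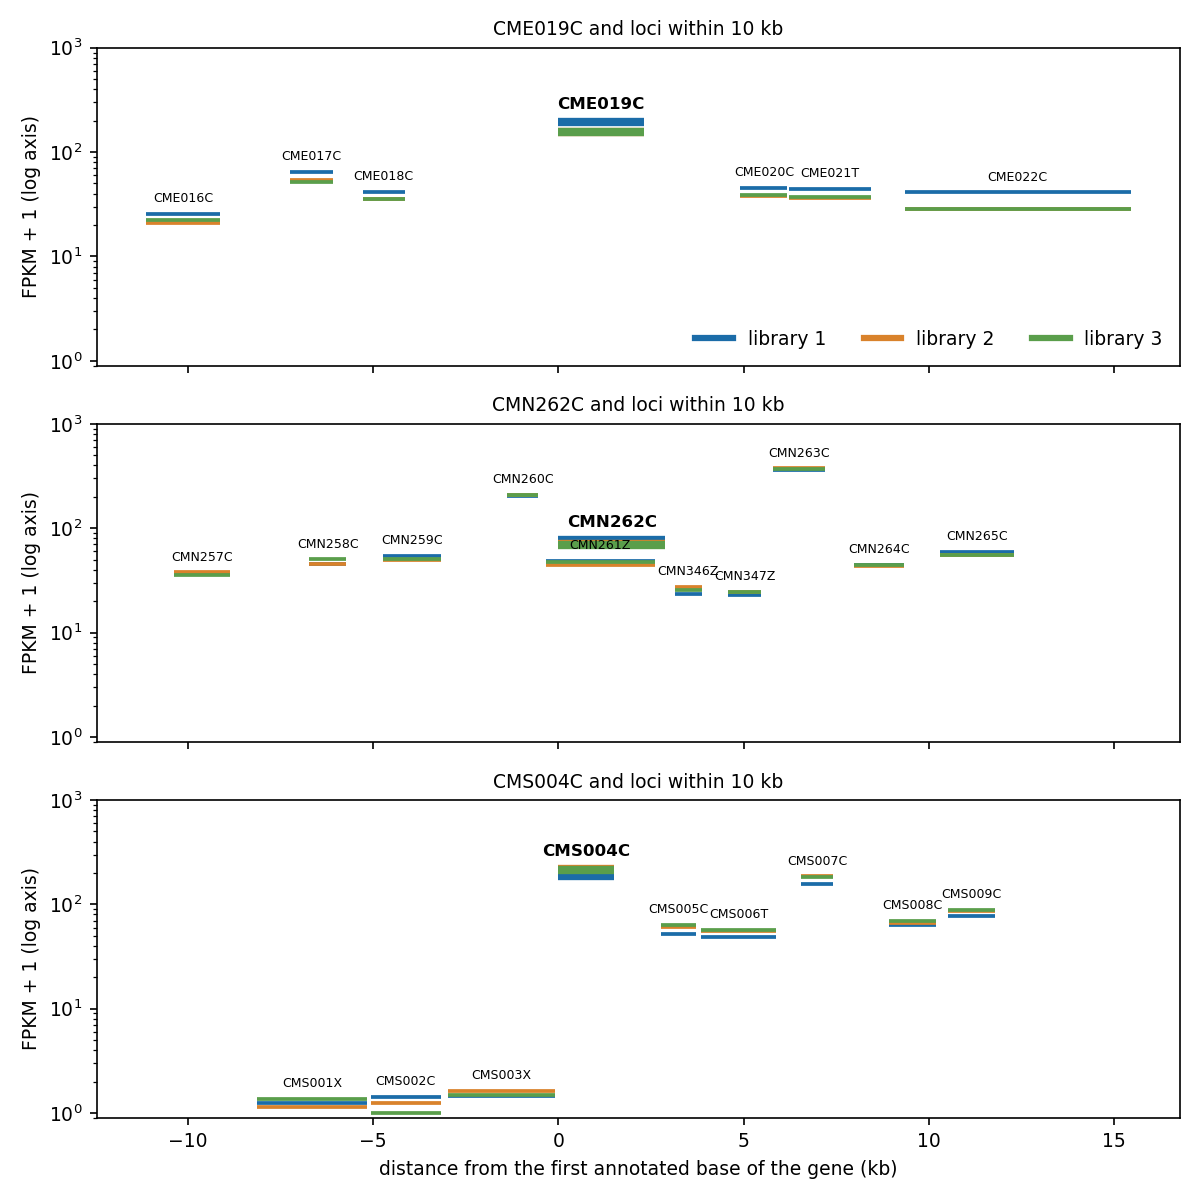
FPKM + 1 on a log axis (y axis) of each gene (thick bars, bold name) and of annotated loci within 10 kb (thin bars) in libraries 1, 2 and 3 (colours), against the distance in kb from the first annotated base of the gene (x axis). CMS004C rises from loci near 0 on its left, CME019C is above all its neighbours, and CMN262C overlaps CMN261Z and lies near CMN260C and CMN263C, which are higher.

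The other neighbours of CMN262C were at varied levels. CMN260C, 535 bp before CMN262C, was at 201, 208 and 208 FPKM. CMN263C had 361, 373 and 372, while CMN346Z, 256 bp after CMN262C, had 22.5, 26.5 and 24.4. Of the 10 loci within 10 kb, 4 were higher and 4 were lower in library 1 than in both other libraries, and none had limits apart. On chromosome 14 as a whole, 94 of 187 loci (50.3%) were higher in library 1, so the neighbours showed no direction of their own.

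The loci most like each gene were found by the Euclidean distance of log2(FPKM + 1) over the 3 libraries, among 3987 nuclear loci ending in C without overlap. For CMS004C these were CMQ123C (183, 218 and 218 FPKM, distance 0.035) on chromosome 17 and CMR409C (190, 215 and 214, distance 0.036) on chromosome 18. For CME019C they were CMG178C (196, 156 and 162, distance 0.072) on chromosome 7 and CMC015C (202, 154 and 154, distance 0.074) on chromosome 3. For CMN262C they were CME040C (76.1, 70.0 and 67.3, distance 0.030) on chromosome 5 and CML164C (75.1, 69.0 and 68.7, distance 0.037) on chromosome 12. Between the genes themselves the distance was 0.66 for CME019C and CMS004C, 2.11 for the dynamin-related genes and 2.63 for CMN262C and CMS004C. These cannot be weighed against the distances above, which were picked as the smallest among the 3987 loci. Libraries 2 and 3 entered each distance separately.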

How the data were processed

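The 3 RNA-seq libraries, labelled as biological replicates, were made from strain 10D in liquid culture. The authors checked paired-end reads of TruSeq libraries (HiSeq sequencer) with FastQC and ran the Tuxedo tools in Galaxy on the *C. merolae* Genome Project v3 annotation. They deposited 1 Cufflinks table per library, with FPKM and confidence limits. Program versions and the treatment of reads at several loci are not given in the sources used here. FPKM are not counts, so no count test was run. Starts were written from 1.

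Implied fragments are FPKM divided by its SD, squared, with the limits read as 2 SD from the FPKM. Depth and noise were taken from them only at loci without overlap, and of those with fewer than 50, 66.4% to 73.2% were within 0.05 of a whole number. Levels were compared on log2(FPKM + 1), with exact permutation tests over libraries, which measure only the spread between these libraries. The noise index and the rule of limits were tested on simulated Poisson counts at loci without overlap. That test does not cover limits wider than counting gives, as at CMN262C. The members and lists were chosen with earlier results of these data known. The loci named were the 3 genes, their neighbours and, for each gene, the 2 loci most like it. Lists of other division and cell cycle genes and of protein relatives were not analysed here, since the gene table pairs identifiers with no products or proteins, and the loci most like each gene were taken without a condition on products. Alternatives were other pseudocounts, filters and scalings, and each library left out. Scripts ran in Python 3.11.15 (scipy 1.17.1, numpy 2.4.6, matplotlib 3.10.9, pandas 2.3.3).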

Additional observations from a re-analysis of the deposited data

How the results depend on the processing

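The planned counts over lists of division genes, cell cycle genes and protein relatives were not run. With each library left out in turn, mean FPKM ranged from 155 to 174 for CME019C and 68.5 to 72.9 for CMN262C. For CMS004C it ranged from 199.5 to 215. No difference between genes changed sign, but only leaving out library 1 removes a whole sample. The other libraries count together as 1 sample, so leaving out either alone cannot test the sign. The log2 difference of CME019C minus CMS004C ranged from -0.47 (without library 1) to -0.21. In library 1 alone this difference was 0.052, so its sign depended on the library. The pairs with CMN262C kept their sign in every library. The percentile moved by more than its spread among loci of like length (93.1 for CME019C, 74.8 for CMN262C and 91.4 for CMS004C), among loci without overlap (87.0 for CMS004C) and among loci whose mean FPKM reached 1 (87.5 for CMS004C). With libraries scaled to a common median of nuclear loci ending in C, the log2 difference of library 1 was 0.37 at CME019C and -0.15 at CMS004C.

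The following settings were chosen after seeing the data. Paired within libraries, the log2 differences were 1.22 (CME019C minus CMN262C), -0.29 (CME019C minus CMS004C) and -1.51 (CMN262C minus CMS004C), with p = 0.25, 0.5 and 0.25 by exact two-sided sign flips, of which 0.25 is the smallest that 3 libraries allow. As a share of the summed FPKM of nuclear loci ending in C, which moves the median locus by 0.25, the log2 difference of library 1 was 0.64 at CME019C, 0.49 at CMN262C and 0.12 at CMS004C, where it reversed, so only differences relative to other loci can be read. Relative to the median of its own chromosome it was 0.040 at CME019C and 0.0040 at CMS004C. The value at CMS004C is smaller than its counting SD of 0.032, so no direction can be read there. On this scale CME019C was above CMS004C by 0.14, a reversal from -0.21. With CMN261Z added, CMN262C had a mean FPKM of 119 and stood at percentile 77.5.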
